A study of Mus musculus with 4 samples.

Results

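The 9 genes described here make heme (*Alas1*, *Alad*, *Urod*, *Cpox* and *Fech*), break it down (*Hmox1*), clear heme and hemoglobin from plasma (*Hpx* and *Hp*) or bring iron into cells (*Tfrc*). They were selected on the called peaks of this study, as genes of these pathways that the peak lists name or lack, so their peak counts, widths and positions are a description and carry no test. All 9 were found among 21938 protein-coding genes of the GENCODE annotation, and 8 of them had at least 1 called peak, with *Urod* the exception. A peak was counted for a gene when it lay within 50 kb of its transcription start site (TSS), here the 5′ end of the gene. This gave 52 of the 17545 called peaks of the 4 samples, of which 38 carried the symbol of 1 of the 9 genes in the deposited annotation and 14 that of a neighbour (*Tlr9*, *Poc1a*, *Hdhd3* or *Smpd1*). The outermost peak inside this distance lay 45504 bp from the TSS of *Hpx*, at the promoter of *Smpd1*, and the nearest peak outside it lay 57741 bp from that of *Tfrc*.

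Chromatin from mouse liver was precipitated with an antibody to the glucocorticoid receptor (GR) or to E2A, with 2 biological replicates each. GR is the hormone-activated transcription factor through which corticosterone acts, and E2A denotes the products of *Tcf3*, among them E47, a helix-loop-helix factor that binds E-boxes (CANNTG). All 4 samples came from male C57BL/6 mice of the genotype E47+/+, kept on chow, 10 to 16 weeks old, with livers taken at zeitgeber time 10, that is 10 h after lights on. The labels give the livers as untreated. The paper's main text speaks of livers collected in the late afternoon and names no treatment for these ChIPs. Its list of supplementary data speaks of Dex-treated livers, and which holds was not settled here. No group without antibody, without GR or without E47 was analysed here. The free-text descriptions of both E2A samples name a GR ChIP, the second in E47-/- mice, whereas their titles, antibody and genotype name E2A in wild type, which was followed. By the study's account both ChIPs were made from the same livers, but the labels do not tie a GR sample to an E2A sample, so whether equal replicate numbers mark the same animal is not known. For GR the replicate numbers of the labels were used, which are opposite to those in the names of the deposited lists. Whole liver was used, so binding in fewer cells and weaker binding per cell cannot be told apart.

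Heme is built from glycine and succinyl-CoA, beginning and ending in the mitochondrion, and the liver needs it above all for cytochrome P450 enzymes. *Alas1* encodes the first and rate-limiting enzyme of this route in liver, and heme in turn holds *Alas1* down. Free heme and hemoglobin are toxic, and hepatocytes secrete hemopexin and haptoglobin to bind them in plasma, both as part of the acute-phase response in which glucocorticoids take part.

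The lists held 4291 and 7334 peaks for GR replicates 1 and 2, and 4028 and 1892 peaks for E2A replicates 1 and 2. GR replicate 2 stood apart by its number of peaks and by the 57.4% of them at promoters (34.3% to 41.2% in the others). It had the most broad peaks, 139 or 1.90% being wider than 2000 bp, against 0.489% in GR replicate 1, 0.472% in E2A replicate 1 and 1.32% in E2A replicate 2. It also gave 25 of the 52 peaks near the 9 genes, against 12 for GR replicate 1, 7 for E2A replicate 1 and 8 for E2A replicate 2. The lists give no read count or height, so the depth behind a peak is unknown, and a gene without a peak lacked a call and was not shown to be unbound. Among marker genes, all 6 hepatocyte genes examined (such as *Alb* and *Tat*) had a GR peak within 1 kb of the TSS in both replicates. Of all genes, 5.35% did. An E2A peak lay there in any replicate at 5 of the 6, beside 8.53% of all genes. None of 6 erythroid genes (*Gata1* and *Alas2* among them), 3 endothelial, 3 cholangiocyte or 3 stellate cell genes had any peak within 1 kb. Of 4 macrophage genes only *Cd68* did, in GR replicate 2. In any replicate, 19.6% of all genes had a GR peak there and 8.53% an E2A peak. Within 50 kb, where 44.0% of all genes had one, GR peaks lay near 2 of the 6 erythroid genes (*Klf1* and *Epor*), 1 of the 3 endothelial (*Pecam1*) and 2 of the 4 macrophage genes (*Ptprc* and *Cd68*).

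Within 50 kb of the TSS, GR peaks were called at 3 of the 9 genes in replicate 1 (*Alas1*, *Cpox* and *Hp*) and at 8 in replicate 2. Of all protein-coding genes, 23.6% and 41.8% had such a peak in these samples. E2A peaks were called at *Alas1*, *Alad*, *Hpx* and *Hp* in both replicates, which is 4 of 9 each time, beside 26.5% of all genes in replicate 1 and 13.7% in replicate 2. With the replicates joined, 8 genes had a GR peak in any replicate (44.0% of all genes) and 3 in both (21.4%), while 4 had an E2A peak in any replicate (28.8%) and 4 in both (11.4%). At *Alad* the E2A peaks of the 2 replicates were different ones, the first at its own promoter and the second at that of *Hdhd3*. A GR region that shared at least 1 bp with an E2A region lay near *Alas1*, *Alad*, *Hpx* and *Hp*, again 4 of 9, beside 19.5% of all genes. Since the genes were chosen for their peaks, nothing is read from these shares.

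**Figure D1:**
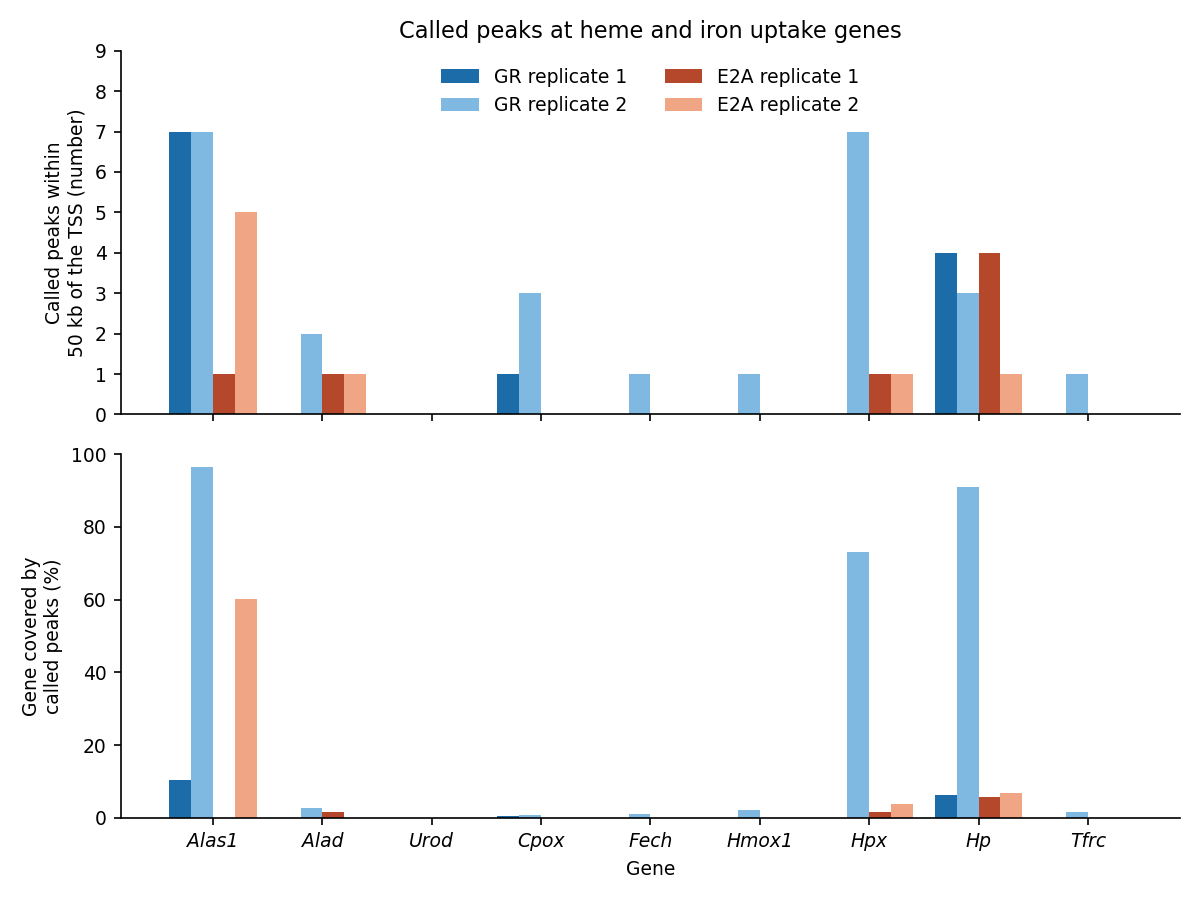
Called peaks within 50 kb of the TSS (top, number) and share of the gene covered by called peaks (bottom, %) for the 9 genes in each of the 4 samples, 1 bar per sample. *Alas1* reached 7 peaks in both GR replicates and *Hpx* 7 in GR replicate 2 only, *Urod* has no bar, and coverage passed 50% at *Alas1*, *Hpx* and *Hp* in GR replicate 2 and at *Alas1* in E2A replicate 2.

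Closer to the start site, within 1 kb, GR peaks were called at *Alas1*, *Cpox* and *Hp* in replicate 1 (3 of 9, with 6.22% of all genes) and at these and *Alad*, *Hmox1*, *Hpx* and *Tfrc* in replicate 2 (7 of 9, with 18.8%). E2A replicate 1 had a peak there at *Alad*, *Hp* and *Hpx* (7.74% of all genes) and replicate 2 at *Alas1*, *Hp* and *Hpx* (3.24%). GR was thus called within 1 kb of 7 genes in any replicate (19.6%) and of 3 in both (5.35%), and E2A of 4 in any replicate (8.53%) and of 2, *Hp* and *Hpx*, in both (2.46%). Regions of GR and E2A overlapped within 1 kb at *Alas1*, *Alad*, *Hpx* and *Hp*, 4 of 9, beside 5.92% of all genes. *Hp* was the only gene of the 9 with a promoter peak in all 4 samples.

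**Figure D2:**
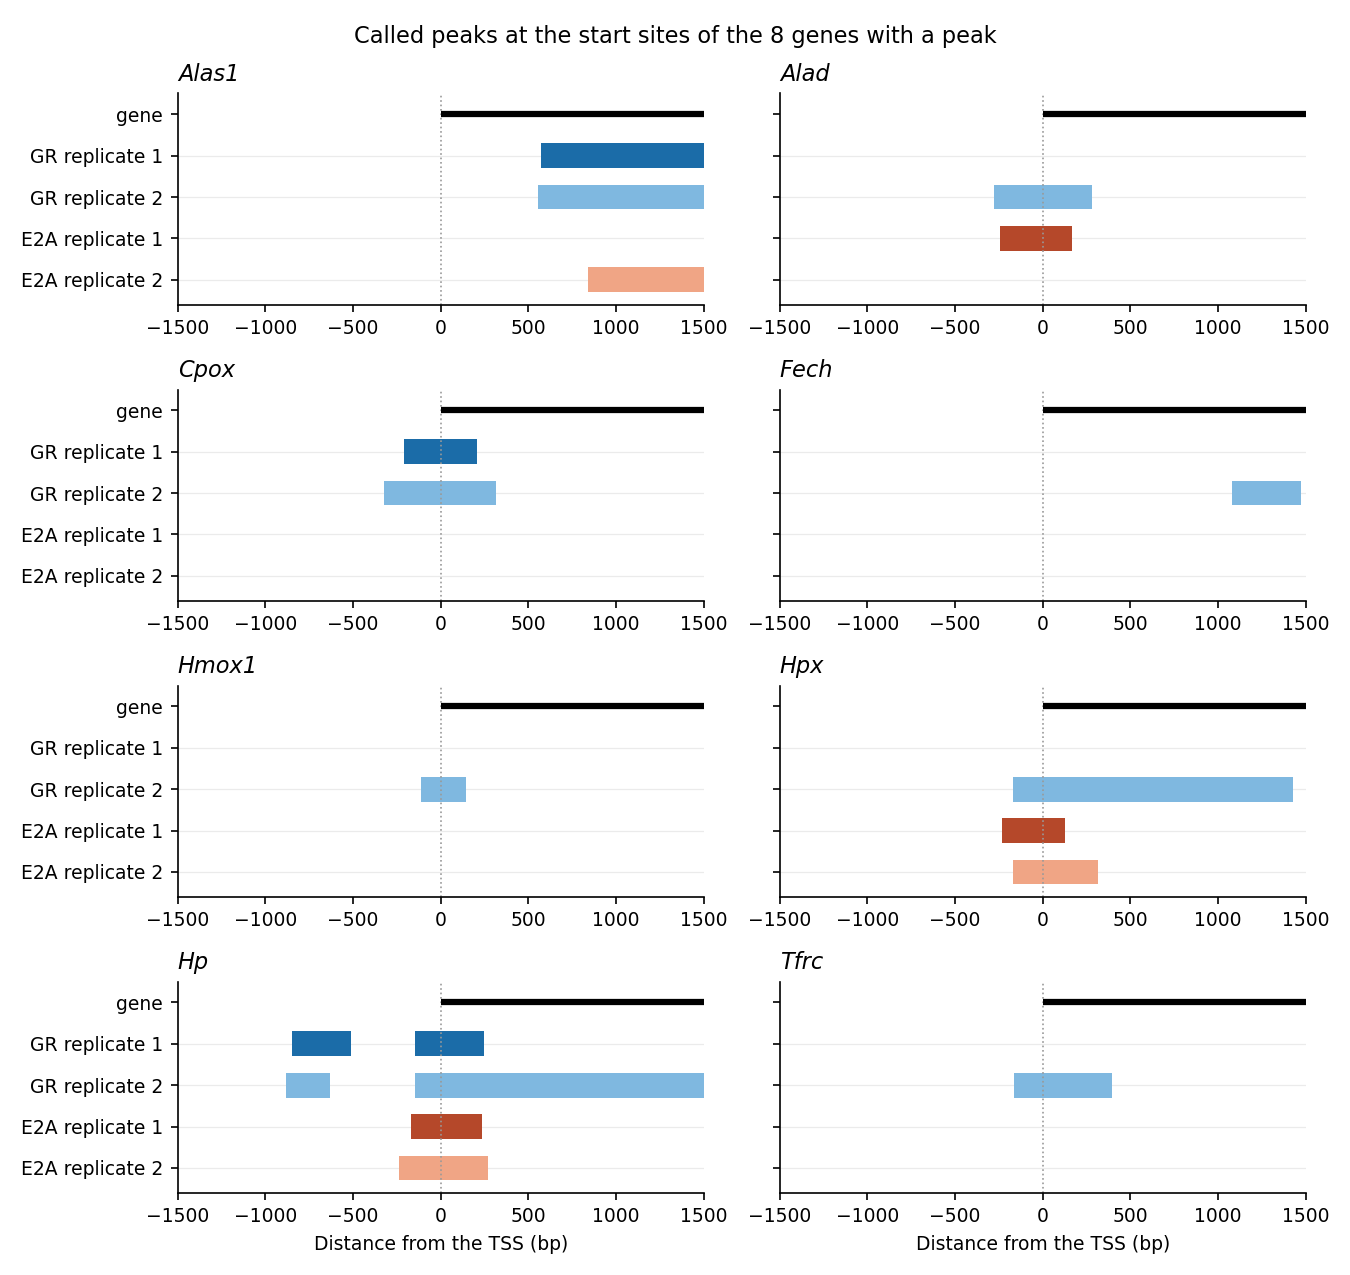
Called peaks around the TSS (x axis, distance in bp in the direction of transcription) at the 8 genes with a peak, with the gene as a black bar and 1 row per sample. Peaks of GR and E2A lie over each other at *Alas1*, *Alad*, *Hpx* and *Hp*, and *Cpox*, *Fech*, *Hmox1* and *Tfrc* hold GR peaks alone.

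*Alas1* lies on the minus strand at chr9:106233455-106248654 (GRCm38.p6, the assembly of mm10) and had 20 of the 52 peaks. There were 7 GR peaks in each replicate, 1 E2A peak in replicate 1 and 5 in replicate 2. In GR replicate 2 the gene lay under a single peak of 17441 bp, chr9:106230659-106248099, the third widest of the 7334 peaks in that list (rank 3). GR replicate 1 had a promoter peak of 1224 bp, chr9:106246857-106248080, and a peak of 340 bp in exon 10, both inside the wide peak. E2A replicate 2 had 4 peaks along the gene, of 1051, 3793, 1746 and 2335 bp from promoter to exon 9, and another of 2307 bp across its 3′ end, annotated to *Tlr9*. E2A replicate 1 had only a peak of 715 bp, which lay inside this last peak and beyond the end of the gene. The promoter peaks of the 3 samples that had one shared 957 bp. They began between 555 and 841 bp inside the gene, because GENCODE places the 5′ end upstream of the start used in the deposited annotation, where their distance is 0.

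Called peaks covered 96.3% of *Alas1* in GR replicate 2, 60.1% in E2A replicate 2, 10.3% in GR replicate 1 and 0% in E2A replicate 1. The covered share was high in the second replicate of each ChIP and low in the first by the numbers of the labels, which for GR are opposite to those in the names of the lists. Over 18695 genes of at least 4000 bp, coverage of 50% or more was reached by 0.016% in GR replicate 1, 0.166% in GR replicate 2, 0.0267% in E2A replicate 1 and 0.0321% in E2A replicate 2, which is 3, 31, 5 and 6 genes. None of the 9 genes reached it in the first replicate of either ChIP, *Alas1*, *Hpx* and *Hp* did in GR replicate 2, and *Alas1* did in E2A replicate 2.

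Upstream of *Alas1* there was a group of 6 GR regions between -14601 and -24280 bp from the TSS, spanning 10532 bp, and no E2A peak. Of these, 5 were called in both replicates, and their peaks overlapped by 91.1% to 100% of the shorter peak. A limit of 5 such regions, called in both replicates in the 50 kb upstream of a TSS, was taken from *Alas1* itself. *Alas1* thus met it by definition, and 27 of all genes, or 0.123%, had at least as many. Of the 9 genes, none but *Alas1* did. The other 8 had from 0 to 1 such region, the 1 being at *Hp*. Widths in this group ran from 287 to 854 bp, without the broad peaks seen over the gene in replicate 2. The deposited annotation called all 11 of its peaks distal intergenic and gave the nearest gene as *Alas1* for the region closest to it and as *Poc1a* for the rest. RefSeq places the non-coding RNA gene *Gm33564* over all of them, at chr9:106260996-106276012 on the plus strand.

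The sequence of 3 of these upstream regions is given because they were called by GR in both replicates and by E2A in neither, and because they hold letters that nuclear receptors are known to bind. Each is the run of bases common to both GR peaks, cut to its central 300 where longer, from the plus strand of GRCm38.p6, and named by the distance of that run from the *Alas1* TSS. Capitals mark the GR hexamer TGTTCT and the DR1 element, a repeat of AGGTCA with a spacing of 1 base and at most 2 mismatches. Each is in reverse complement where it lies on the other strand, as both DR1 elements do. The 3 sequences lie at chr9:106263482-106263781, chr9:106265399-106265685 and chr9:106270725-106271024.
Alas1 -14724 bp: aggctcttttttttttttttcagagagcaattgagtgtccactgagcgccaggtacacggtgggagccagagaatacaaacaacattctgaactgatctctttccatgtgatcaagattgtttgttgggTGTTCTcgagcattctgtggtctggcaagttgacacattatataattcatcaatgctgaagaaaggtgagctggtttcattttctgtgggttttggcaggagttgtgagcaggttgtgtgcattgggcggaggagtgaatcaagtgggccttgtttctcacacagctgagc
Alas1 -16745 bp: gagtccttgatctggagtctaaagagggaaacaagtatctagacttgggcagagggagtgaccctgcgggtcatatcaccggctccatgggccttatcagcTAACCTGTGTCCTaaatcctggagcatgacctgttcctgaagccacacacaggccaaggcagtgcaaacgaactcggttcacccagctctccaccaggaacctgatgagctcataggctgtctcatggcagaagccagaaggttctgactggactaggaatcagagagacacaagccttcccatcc
Alas1 -22056 bp: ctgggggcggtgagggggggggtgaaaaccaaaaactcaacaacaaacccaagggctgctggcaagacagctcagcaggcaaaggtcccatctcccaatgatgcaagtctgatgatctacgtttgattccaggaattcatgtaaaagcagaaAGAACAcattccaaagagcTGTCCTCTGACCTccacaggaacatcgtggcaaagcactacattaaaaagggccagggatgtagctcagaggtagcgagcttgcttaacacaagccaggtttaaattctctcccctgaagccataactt

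The first of these holds 1 hexamer and no DR1. The second holds a DR1 with 2 mismatches and no hexamer, and the third holds both, its DR1 with 1 mismatch. The runs at -18289 and -23675 bp, cut in the same way, hold neither. No full glucocorticoid response element (GRE) lies in these 5 cut runs. A GRE is here the pair of hexamers AGAACA and TGTTCT 3 bp apart, with at most 2 mismatches in its 12 fixed bases. The regions were not searched over their full width.

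**Figure D3:**
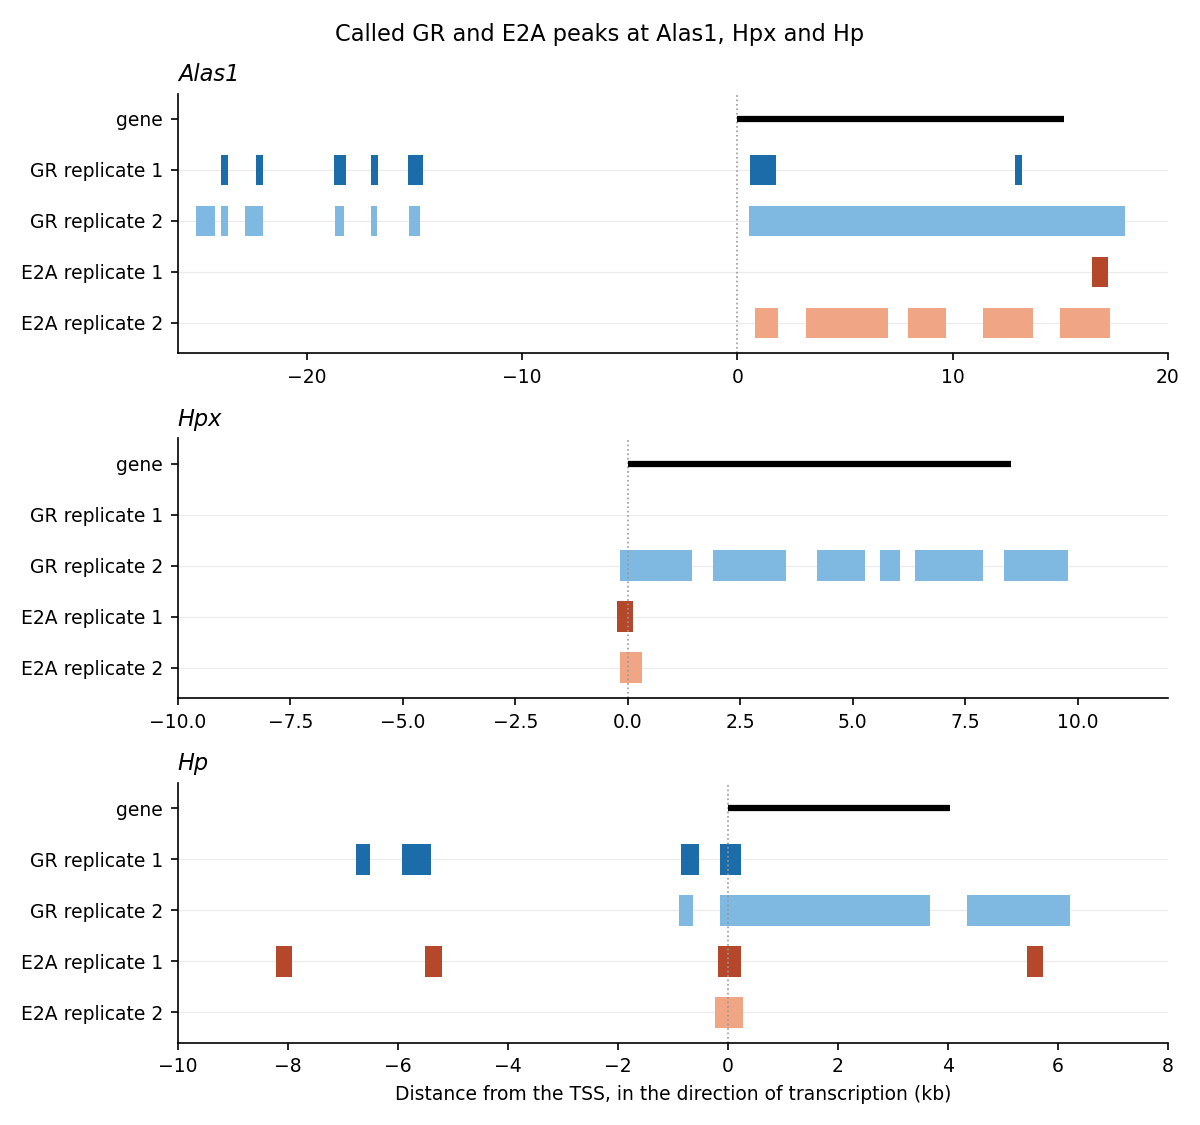
Called peaks in the 4 samples at *Alas1*, *Hpx* and *Hp* against the distance from the TSS (kb, in the direction of transcription), with the gene as a black bar. The upstream group at *Alas1* appears in both GR rows and in no E2A row, and the broad peaks over the 3 genes appear in GR replicate 2 and, at *Alas1*, in E2A replicate 2.

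*Alad* encodes the second enzyme of the route, which joins 2 molecules of 5-aminolevulinate into porphobilinogen. Its promoter had a GR peak of 560 bp in replicate 2, chr4:62519640-62520199, and an E2A peak of 411 bp in replicate 1, chr4:62519751-62520161. The E2A peak lay wholly inside the GR peak, and their centres were 36.5 bp apart. No peak was called there in GR replicate 1, whose nearest peak was 78961 bp away, or in E2A replicate 2, so this overlap rests on 1 sample of each ChIP. A further GR peak of 423 bp and an E2A peak of 297 bp, both in replicate 2, lay at the promoter of *Hdhd3*, 17479 and 16476 bp from the *Alad* TSS, and did not overlap.

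*Cpox* encodes coproporphyrinogen oxidase, an enzyme of the mitochondrial intermembrane space. Its promoter peak was called in both GR replicates, chr16:58670081-58670497 (417 bp) in the first and chr16:58669968-58670605 (638 bp) in the second. The first lay inside the second with the centres 2.5 bp apart, the closest match of GR replicates at any of the 9 genes. Replicate 2 also had peaks of 274 and 369 bp at -6104 and -7476 bp. No E2A peak lay within 50 kb, and the nearest was 801457 bp away in replicate 1 and 2594491 bp in replicate 2.

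*Fech*, the enzyme that inserts iron into protoporphyrin, had 1 peak, of 392 bp in GR replicate 2, 1082 bp inside the gene by the GENCODE start and at distance 0 by the deposited one. It therefore counts as within 50 kb and not within 1 kb. *Urod*, uroporphyrinogen decarboxylase of the cytosol, had no peak in any sample. In GR replicate 1 and both E2A replicates its nearest peak was from 139290 to 139477 bp away, at *Plk3*. The 5 enzymes thus ranged from 20 called peaks at *Alas1* through 4 each at *Alad* and *Cpox* and 1 at *Fech* to 0 at *Urod*.

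The promoter sequences of *Alad* and *Cpox*, called by GR with and without E2A, are set beside that of *Urod*, which was called in no sample. They are the RefSeq bases (GRCm38.p6) from at most 250 bp before the start, up to the first transcribed base of any transcript, on the strand of the gene. Capitals mark the E-box CANNTG in *Alad* and *Urod* and, in reverse complement, the NRF1 site CGCANGCG in *Cpox*. The windows are chr4:62520064-62520159 (minus), chr16:58669958-58670207 (plus) and chr4:116994437-116994663 (minus).
Alad: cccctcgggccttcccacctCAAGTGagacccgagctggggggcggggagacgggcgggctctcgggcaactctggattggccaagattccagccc
Cpox: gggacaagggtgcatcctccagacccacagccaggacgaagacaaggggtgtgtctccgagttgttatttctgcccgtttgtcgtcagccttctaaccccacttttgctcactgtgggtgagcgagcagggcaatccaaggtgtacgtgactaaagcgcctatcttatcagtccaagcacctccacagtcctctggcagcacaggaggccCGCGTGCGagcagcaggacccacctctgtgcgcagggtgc
Urod: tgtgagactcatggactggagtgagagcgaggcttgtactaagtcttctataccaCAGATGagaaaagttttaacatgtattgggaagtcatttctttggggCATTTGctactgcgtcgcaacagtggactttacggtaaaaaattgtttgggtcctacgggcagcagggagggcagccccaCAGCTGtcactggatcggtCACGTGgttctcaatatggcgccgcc

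*Alad* has 1 E-box in the bases shown, at -230 bp from the downstream of its 2 RefSeq starts, inside both the GR and the E2A peak. Its window is 96 bp long, against 227 bp for *Urod*. Outside this window lie further E-boxes of *Alad*, among them CACGTG at -28 bp from the same start and at -105 bp from the upstream start. The central 300 bp of its GR and of its E2A promoter region each hold a CACGTG. *Cpox* has no E-box and an NRF1 site at -40 bp, inside the GR peaks of both replicates. This site is not particular to *Cpox*. RefSeq promoter windows of *Tfrc*, at -119 bp, and of *Alas1*, which E2A replicate 2 called within 1 kb, hold it too. Those of *Alad*, *Urod* and *Hpx* do not. The *Urod* window has 4 E-boxes, among them CACGTG at -49 bp and CAGCTG at -68 bp, and none lies in a called peak. Of 32851 RefSeq promoter windows of 300 bp, 72.3% hold a CANNTG and 8.21% the NRF1 site.

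*Hmox1* encodes the inducible heme oxygenase, which opens the heme ring and frees its iron. It had 1 peak within 50 kb, at its TSS in GR replicate 2, chr8:75093506-75093767. At 262 bp it was among the narrowest peaks of that list, at rank 6948 of 7334 by width. GR replicate 1 had none nearer than 59680 bp, and E2A none nearer than 1951224 bp in replicate 1 and 2522368 bp in replicate 2. *Tfrc*, the transferrin receptor through which cells take up iron, had the same pattern, with 1 peak of 560 bp over its TSS in GR replicate 2, chr16:32608758-32609317. The nearest peak of GR replicate 1 was 79913 bp away and those of E2A 79895 and 57741 bp.

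*Hpx* encodes hemopexin, which carries free heme to the liver. It lies on the minus strand at chr7:105591613-105600137 and had 0 and 7 GR peaks and 1 E2A peak in each replicate. At its promoter both E2A replicates had a peak and only the second GR replicate did. The E2A promoter peaks, chr7:105600012-105600369 (358 bp) and chr7:105599823-105600305 (483 bp), overlapped by 294 bp. GR replicate 2 had a promoter peak of 1599 bp, chr7:105598709-105600307, that shared those 294 bp. Another 5 GR peaks of 455 to 1629 bp followed along the gene, the last at the 3′ UTR, and the seventh lay at the promoter of *Smpd1*. Called peaks covered 73.1% of *Hpx* in GR replicate 2, 1.48% and 3.70% in the E2A replicates and 0% in GR replicate 1, where the nearest peak was 3629852 bp away.

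The *Hpx* promoter, on which both E2A replicates and GR replicate 2 met, is shown from chr7:105600138-105600366 (RefSeq, GRCm38.p6, minus strand), ending before the first transcribed base. Capitals mark the C/EBP site TTGCNNAA and the E-box CANNTG, in this order.
Hpx: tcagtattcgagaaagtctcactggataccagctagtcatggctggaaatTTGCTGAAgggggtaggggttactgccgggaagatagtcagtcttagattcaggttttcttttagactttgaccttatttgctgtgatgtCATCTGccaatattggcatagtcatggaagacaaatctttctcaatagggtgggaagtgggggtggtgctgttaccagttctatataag

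The E-box lies at -110 bp from the RefSeq start, inside the peaks of 3 samples. The C/EBP site, at -200 bp, lies inside the peak of E2A replicate 1 alone, since the other peaks end before it. Of all RefSeq promoter windows, 10.8% hold the C/EBP site.

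*Hp* encodes haptoglobin, the plasma binder of hemoglobin, and lies on the minus strand at chr8:109575128-109579172. Here 4 and 3 GR peaks and 4 and 1 E2A peaks were called. The promoter peaks of all 4 samples shared 380 bp, chr8:109578939-109579318. Those of GR replicate 1 and both E2A replicates were 399, 406 and 511 bp wide with centres at most 35.0 bp apart, while that of GR replicate 2 was 3831 bp wide, rank 47 of 7334, and ran over the gene. Coverage of *Hp* was 91.1% in GR replicate 2 and from 5.78% to 6.70% in the other 3 samples. A second GR region in front of the promoter, at -514 and -629 bp, was called in both GR replicates and not by E2A.

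Farther upstream of *Hp* the calls came from the first replicates alone. GR replicate 1 had peaks at -5391 bp (539 bp wide) and -6508 bp (253 bp), and E2A replicate 1 at -5195 bp (304 bp) and -7923 bp (296 bp). The pair at -5391 and -5195 bp overlapped by 108 bp, or 35.5% of the shorter, the smallest overlap of GR and E2A peaks at any of the 9 genes. Past the 3′ end of *Hp*, a GR peak of 1859 bp in replicate 2 enclosed an E2A peak of 286 bp in replicate 1.

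The region at -5391 bp is printed because among the 27 merged GR regions near these genes it alone has a GRE in its central 300 bp. It was called in GR replicate 1 alone, and without that replicate no region had one. Taken peak by peak, the exon 10 peak of GR replicate 1 at *Alas1*, chr9:106235425-106235764, also has a GRE at its centre, which merging with the 17441 bp peak of replicate 2 moves out of the window searched. Without GR replicate 2 the share was therefore 16.7%, and with peaks of at most 2000 bp it was 7.14%. The bases are chr8:109584683-109584982 from the plus strand of GRCm38.p6, and capitals mark the 2 matches, each with 2 mismatches.
Hp -5391 bp: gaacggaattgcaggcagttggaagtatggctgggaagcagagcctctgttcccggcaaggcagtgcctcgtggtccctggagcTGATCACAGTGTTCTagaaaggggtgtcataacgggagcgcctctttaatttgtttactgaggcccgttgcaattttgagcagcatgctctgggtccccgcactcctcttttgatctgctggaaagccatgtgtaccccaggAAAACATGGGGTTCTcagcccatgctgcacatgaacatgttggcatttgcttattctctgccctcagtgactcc

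The first match ends in the hexamer TGTTCT. Both matches lie outside the peak of E2A replicate 1. Among all 8795 GR regions, 5.42% had a GRE by this rule, and so did 1.84% of RefSeq promoters. The share of 1 in 27, 3.70%, has a 95% Wilson interval of 0.657% to 18.3%, which covers counting error only.

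Joined over replicates, there were 27 GR and 12 E2A regions near the 9 genes. Of the GR regions 9 (33.3%) were called in both replicates, 16 in replicate 2 alone and 2 in replicate 1 alone, where 31.1% of all 8795 GR regions were called in both. Of the E2A regions 3 (25.0%) were called in both, 4 in replicate 1 and 5 in replicate 2 alone, against 23.4% of all 4783. Most of the E2A regions, 10 of 12 or 83.3% (95% Wilson interval 55.2% to 95.3%), overlapped a GR region, and 5 of these 10 lay under the wide peak at *Alas1*. Of the GR regions 6 of 27, 22.2% (10.6% to 40.8%), overlapped an E2A region. Over all regions these shares were 58.1% for E2A and 30.7% for GR. The intervals cover counting error only and take the regions as independent, but peaks at 1 gene share their source. The genes were also chosen for their peaks, and no test was made of the differences.

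E-boxes were common in these regions and in all others. A CANNTG lay in the central 300 bp of 21 of the 27 GR regions (77.8%) and of 9 of the 12 E2A regions (75.0%), where all regions gave 68.9% and 72.8% and promoters 72.3%. CAGGTG lay in 7 GR regions (25.9%, all regions 19.6%) and in 4 E2A regions (33.3%, all regions 20.1%), and CACGTG in 4 (14.8%, all regions 7.95%) and 1 (8.33%, all regions 8.38%). The hexamer TGTTCT lay in 8 GR regions (29.6%, all regions 22.2%) and 5 E2A regions (41.7%, all regions 18.6%), and 4 of those 5 are the wide regions along *Alas1*, of which only the centre was searched. DR1 lay in 3 GR regions, 11.1% against 7.83% of all. The hexamer and the DR1 printed above for the *Alas1* region at -22056 bp are not in these counts. They lie outside the central 300 bp of the merged region. Both strands were searched, and CAGGTG and CACGTG are also counted under CANNTG. No test was made of these shares, since the genes were chosen for their peaks and regions of 1 gene are not independent.

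The broad peaks near these genes lay at *Alas1*, *Hpx* and *Hp* and came mostly from the second replicate of each ChIP, as the labels number them. The 12 peaks of GR replicate 1 had a median width of 374 bp (253 to 1224 bp) and the 25 of replicate 2 one of 560 bp (252 to 17441 bp). For E2A the 7 peaks of replicate 1 had a median of 358 bp (286 to 715 bp) and the 8 of replicate 2 one of 1398.5 bp (297 to 3793 bp). The medians over all peaks of these lists were 372, 408, 378 and 349 bp. In both first replicates the median near these genes was close to that of the list, and in both second replicates it was higher. The 5 peaks wider than 2000 bp came from the second replicates, 2 from GR, at *Alas1* and *Hp*, and 3 from E2A, all at *Alas1*. With only *Alas1* left out, the median of GR replicate 2 stayed at 560 bp. Without *Alas1*, *Hpx* and *Hp* the 8 remaining peaks of GR replicate 2 ran from 262 to 638 bp. Their median was 407.5 bp, beside 408 bp for the whole list. These genes were left out because they hold the broad peaks, so narrower peaks had to remain. Of the 8 E2A peaks of replicate 2, 5 lay at *Alas1*, and the other 3 were 297, 483 and 511 bp wide. What made the peaks broad was not tested.

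**Figure D4:**
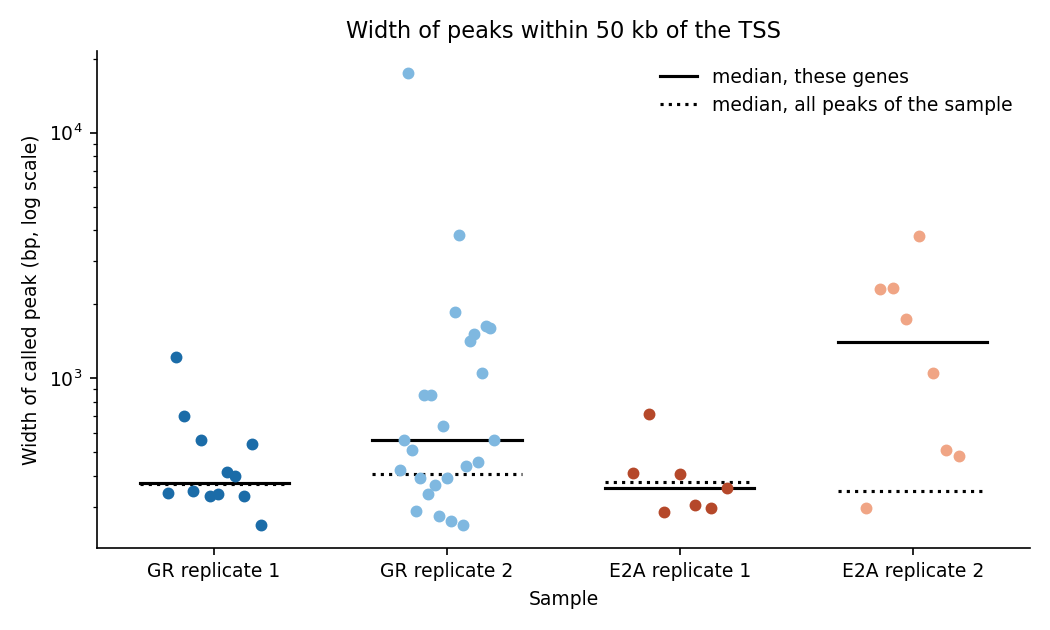
Width (bp, log scale) of each called peak within 50 kb of the TSS of the 9 genes by sample, 1 point per peak, with their median (solid line) and the median of all peaks of the sample (dotted line). The medians are 374 and 372 bp in GR replicate 1, 560 and 408 bp in GR replicate 2, 358 and 378 bp in E2A replicate 1, and 1398.5 and 349 bp in E2A replicate 2.

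The wider pathway was taken from a list of 46 further genes of heme synthesis, heme breakdown and transport, iron uptake and storage, and iron sensing. Of these, 34 (73.9%) had a GR peak within 50 kb in any replicate (44.0% of all genes). An E2A peak lay there at 22 (47.8%, all genes 28.8%) and an overlapping region at 17 (37.0%, all genes 19.5%). At 11 there was no peak at all, a count for which the share of all genes was not computed. Without E2A replicate 1 the overlapping regions fell to 8 genes, and with regions called in both replicates to 6. Within 1 kb there were GR peaks at 23 (50%) in any replicate (19.6% of all genes) and at 13 (28.3%) in both (5.35%), E2A peaks at 6 (13.0%) in any replicate (8.53%) and at 4 (8.7%) in both (2.46%), and overlapping regions at 5 (10.9%, all genes 5.92%). Among the latter were *Lrp1*, the receptor of the heme-hemopexin complex, *Tf*, transferrin, *Ftl1*, the ferritin light chain, and *Hamp*, the hormone hepcidin that limits iron export.

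Of the 11 other genes of heme synthesis and mitochondrial iron supply, 7 had a GR peak within 1 kb in any replicate and 2 in both, where 19.6% and 5.35% of all genes had one. The shares of all genes to set beside the counts within 1 kb that follow are 19.6% for GR and 8.53% for E2A, in any replicate. *Alas2*, the erythroid counterpart of *Alas1*, had no peak within 50 kb in any sample. Among 12 genes of heme breakdown and transport, 4 had a GR peak within 1 kb. No peak lay within 50 kb of 5, *Cd163*, the macrophage receptor for haptoglobin-hemoglobin complexes, among them. For that count too the share of all genes was not computed. Of 11 genes of iron uptake, storage and export 6 had a GR peak within 1 kb and 3 an E2A peak. *Cp*, ceruloplasmin, had E2A promoter peaks in both replicates with no GR peak within 1 kb. A GR peak of replicate 1 did lie within 50 kb of *Cp*, and a GR region there overlapped an E2A region. Of 12 genes of iron sensing and hepcidin control 6 had a GR peak within 1 kb and only *Hamp* an E2A peak.

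The members were matched to the 46 genes by their pattern of calls within 1 kb over the 4 samples. The pattern of *Hp*, a call in all 4, was also that of *Lrp1*, *Tf* and *Hamp*. At these genes too the promoter peak was widest in GR replicate 2, at 1576 bp for *Lrp1*, 3725 bp for *Tf* and 4369 bp for *Hamp*, against 1377, 642 and 1232 bp in GR replicate 1. *Cpox*, called in both GR replicates and not by E2A, had its pattern in common with 9 genes, among them *Slc40a1*, which encodes the iron exporter ferroportin, *Hmox2*, the constitutive heme oxygenase, and *Slc25a37*, the mitochondrial iron importer mitoferrin. *Hmox1* and *Tfrc*, called in GR replicate 2 alone, had theirs in common with 8, such as *Uros*, *Clpx* and *Tfr2*. No gene of the list had the pattern of *Alas1* or that of *Hpx*.

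**Figure D5:**
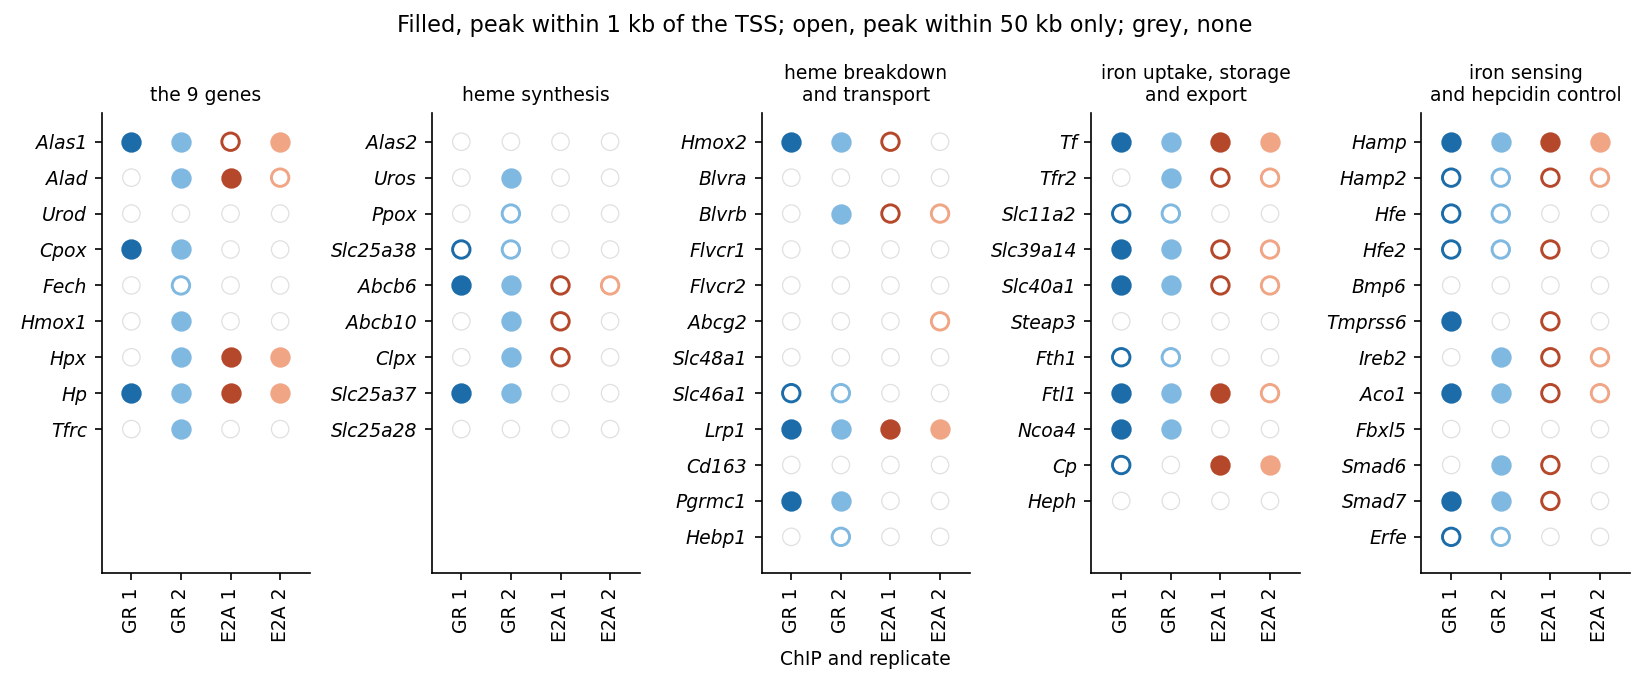
Calls at the 9 genes and at further genes of heme and iron metabolism, with genes as rows and the 4 samples as columns (filled, peak within 1 kb of the TSS, open, peak within 50 kb only, grey, none). *Hp*, *Lrp1*, *Tf* and *Hamp* are filled in all 4 columns, and *Urod* and *Alas2* in none.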

How the data were processed

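The authors' deposited files list called ChIP-Seq peaks of each sample by position, width and distance to the nearest gene (in bp, not normalized), with no counts, heights or p-values. Per the submitters' processing notes, reads were aligned to mm10 with BWA 0.7.13, duplicates were removed with Picard 1.119 and peaks were called with MACS2 2.1.0. The methods of the paper name other versions of Picard and MACS2. The methods give unique pairs, downsampled to 18 mio (GR) or 22 mio (E2A), and 8 µg antibody. The control, threshold and annotation tool are not given in the sources used here. The peak positions of the plain lists and of the annotated tables were compared, and 0 of 17545 rows differed.

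Peaks were taken within 50 kb or 1 kb of the 5′ end of each gene in GENCODE M21, whose symbol for *Tf* is *Trf*. Overlapping peaks of 1 ChIP were merged, and GR and E2A regions were shared at 1 bp overlap or more. Gene coverage was computed for genes of at least 4000 bp. Motifs were sought in 300 bp windows of RefSeq GRCm38.p6. RefSeq promoter sequences were found for 6 of the 9 genes, not for *Fech*, *Hmox1* and *Hp*. All 9 genes and all 46 pathway genes matched by symbol. Pathway genes were named where they had a shared region within 1 kb or the 1 kb pattern of a member with a call. *Alas2*, *Cd163* and *Cp* fall outside this rule and were chosen after their values were seen. The members and lists were chosen with earlier results of these data known. No test was run. Python 3.11.15, numpy 2.4.6, pandas 2.3.3, scipy 1.17.1 and matplotlib 3.10.9 were used, and the code was tested on simulated peaks and sequences with known answers. Some genes of the lists are counted but not reported here by name.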

Additional observations from a re-analysis of the deposited data

How the results depend on the processing

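Of 106 values recomputed under other settings, 78 stayed within 1.5 times the reported count, the spread of the replicate medians or the 95% interval of a share, and 28 did not. Keeping only regions called in both replicates gave 3 of the 9 genes with a GR region within 50 kb or 1 kb, 2 with a shared region at either distance and 2 with an E2A region within 1 kb. It left 9 GR, 3 E2A and 2 shared regions, a GRE in 0.0% of GR and an E-box in 33.3% of E2A regions, and 22, 11 and 6 pathway genes with a GR, E2A or shared region. Allowing 1 mismatch gave a GRE share of 0.0%. Within 10 kb, 13 pathway genes had an E2A and 9 a shared region, and by the nearest gene of the deposited annotation 11 had a shared region. Leaving out each replicate in turn gave 3 to 8 genes with GR and 2 to 4 with a shared region within 50 kb, and 3 to 7 and 2 to 4 within 1 kb, the low values being those without GR replicate 2. E2A was called near 4 within 50 kb and near 3 within 1 kb. There were 12 to 25 GR, 7 to 8 E2A and 3 to 6 shared regions, median widths of 374 to 560 bp for GR and 358 to 1398.5 bp for E2A, a GRE in 0.0% to 16.7% of GR regions, and an E-box in 50% to 85.7% of E2A regions. Of the pathway genes 24 to 32 had a GR, 14 to 21 an E2A and 8 to 17 a shared region. The cause was not tested. Measuring from any annotated transcript start, chosen after seeing the data, gave 8 genes with GR within 1 kb, *Fech* included, and 5 with E2A within 50 kb. No paired analysis was possible because the results come from no test and the labels tie no GR sample to an E2A sample. Peak lists without read depth, and 2 replicates per ChIP of unequal peak number, limit all values: a missing call can be a peak just under the threshold.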
